A study of Mus musculus with 51 samples.

Results

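The prostaglandin receptor genes Ptger1, Ptger2, Ptger3, Ptger4 and Ptgir and the prostaglandin synthase genes Ptgs1 and Ptgs2 were followed across blood-forming cells of wild-type mice and of mice with an Mll-AF9 knock-in allele. All probe sets annotated to these 7 genes alone were taken, which gave 10 of the 45037 probe sets that are not controls, for 6 of the 7 genes. No probe set carried the name Ptgs1 alone, and that gene was not analysed here. The genes were chosen by their log2 expression values in these same 8 groups, so their levels and differences are given as a description, with no test.

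RNA came from haematopoietic stem cells (HSC) and from progenitors of the common lymphoid (CLP), common myeloid (CMP) and granulocyte-macrophage (GMP) kind, each sorted from mouse bone marrow and lysed at once. Mll-AF9 joins the start of the histone methyltransferase Mll to the end of Af9 and is found in human acute leukaemia. Here it was carried as a knock-in, so that it was not limited to 1 of these populations by a cell-type promoter. Wild type and Mll-AF9 had 5 and 5 replicates of HSC, 8 and 7 of CLP, 5 and 4 of CMP and 5 and 4 of GMP, 43 in all, after the repeat arrays of a CMP replicate were averaged. The sources used here do not give age, sex, strain or zygosity, nor whether replicates came from separate mice.

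Prostaglandins are short-lived lipid signals made from membrane arachidonic acid. The cyclooxygenases Ptgs1, present in many resting cells, and Ptgs2, induced by growth factors, cytokines and stress, make the common precursor, and terminal synthases turn it into prostaglandin E2, prostacyclin, thromboxane and others. The E2 receptors differ in what they signal: EP2 (Ptger2) and EP4 (Ptger4) raise cyclic AMP through Gs, EP3 (Ptger3) mainly lowers it through Gi, and EP1 (Ptger1) acts on calcium. Ptgir is the prostacyclin receptor, also coupled to Gs. Prostaglandin E2 is known for raising the number and engraftment of blood stem cells through cyclic AMP.

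The upstream sequences of the 4 genes whose levels varied most between groups are shown because they differ in base composition (RefSeq, GRCm38.p6, 5′ to 3′ on the strand of the gene, ending just before the annotated gene start). They lie at chr3:157566626-157566820 on the + strand for Ptger3, chr14:44987861-44988110 on the + strand for Ptger2, chr15:5244188-5244437 on the - strand for Ptger4 and chr1:150099781-150100030 on the + strand for Ptgs2. Capitals mark matches, on either strand and counting overlapping ones, to the GC box GGGCGG, the C/EBP core TTGCNNAA, the cyclic AMP response element TGACGTCA, its core TGACG, the TATA box TATAAA or the Meis core TGACAG.
Ptger3: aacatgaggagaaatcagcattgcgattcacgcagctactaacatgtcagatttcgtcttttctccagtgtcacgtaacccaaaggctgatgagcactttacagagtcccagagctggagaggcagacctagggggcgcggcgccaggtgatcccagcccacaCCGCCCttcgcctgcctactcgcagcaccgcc
Ptger2: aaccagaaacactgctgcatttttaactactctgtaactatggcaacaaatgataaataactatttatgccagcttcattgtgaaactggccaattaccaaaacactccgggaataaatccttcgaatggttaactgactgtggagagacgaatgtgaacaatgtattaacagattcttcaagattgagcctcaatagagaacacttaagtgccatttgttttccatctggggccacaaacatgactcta
Ptger4: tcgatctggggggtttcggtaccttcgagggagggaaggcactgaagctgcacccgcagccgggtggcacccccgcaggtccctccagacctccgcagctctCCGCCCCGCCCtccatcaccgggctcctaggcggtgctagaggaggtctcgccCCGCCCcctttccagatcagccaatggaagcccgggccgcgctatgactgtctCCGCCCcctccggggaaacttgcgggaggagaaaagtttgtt
Ptgs2: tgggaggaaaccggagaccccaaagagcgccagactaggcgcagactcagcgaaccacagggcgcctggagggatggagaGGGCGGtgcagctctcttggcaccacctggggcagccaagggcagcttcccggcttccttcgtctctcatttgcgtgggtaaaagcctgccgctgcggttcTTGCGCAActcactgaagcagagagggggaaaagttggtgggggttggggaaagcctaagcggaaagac

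The Ptger4 window was 66.8% G and C with 19 CpG and 4 GC boxes, and the Ptgs2 window was 61.6% with 13 CpG, 1 GC box and 1 C/EBP core. The Ptger3 window of 195 bases was 56.9% with 11 CpG and 1 GC box. The Ptger2 window was 38.0% with 3 CpG and held none of the 6 motifs, and 8.95% of all 27025 upstream windows had a lower share of G and C. Windows of 250 bases had a median of 52.0%, and 32.9% of them held a GC box (23.7% of windows of 195 bases) and 9.55% a C/EBP core. A window for Ptgir also matched, and none was matched for Ptger1. None of the 5 windows held a match to the cyclic AMP response element (found in 1.62% of windows of 250 bases) or its core (17.9%), which says only that these letters are not in these windows.

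Values are log2 of the deposited RMA intensity, a normalised hybridisation signal per probe set, and each gene was read on whichever of its probe sets was brightest on average. The background level was 4.62, the 95th percentile over 129 probe sets of genes not known from blood cells, those of keratin-associated proteins and of taste, olfactory and vomeronasal receptors. Of the 48 group means of the 6 genes, 36 lay above it. The other 4 probe sets, 1 each for Ptger1, Ptger3, Ptger4 and Ptgs2, had all 32 group means below it (2.67 to 3.81); they give no second reading of these genes. Levels of different genes are not set against each other, since each probe set binds with its own efficiency. In bulk RNA, fewer cells of a type and less RNA per cell cannot be told apart.

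The sorted populations were checked on marker genes. The mean of 4 GMP genes (Mpo, Elane, Prtn3, Ctsg) was 12.13 to 12.94 in GMP and at most 10.87 elsewhere. The mean of 4 CMP and erythroid genes was 9.36 to 9.57 in CMP and at most 8.21 elsewhere. The 4 CLP genes (Il7r, Dntt, Flt3, Rag1) averaged 8.35 to 10.30 in CLP, 6.12 to 7.85 in HSC and at most 5.96 in GMP and CMP. Most of the step between CLP and HSC came from Il7r (wild-type means 9.54 and 5.05) and Rag1 (6.82 and 3.28). Dntt (12.30 and 11.59) and Flt3 (10.05 and 9.86) were high in both, and Flt3 overlapped. The HSC list did not set HSC apart from CLP: wild-type CLP and HSC had means of 8.42 and 8.77 for Mecom, 9.31 and 10.07 for Hlf and 8.58 and 8.56 for Procr, and Slamf1 was below background in both. Lists of mature B and T cell genes and of stroma and endothelium genes had at most 1 gene with a group mean above background, and 6 monocyte and macrophage genes averaged at most 7.29, in GMP. For 8 CLP samples by title, namely wild-type replicate 1 and all 7 Mll-AF9 replicates, the labels give CMP as the source; the titles were followed, and in the Mll-AF9 CLP samples the CMP genes averaged 6.25 to 8.21. The 20 Mll-AF9 replicates had Y-linked levels of 2.21 to 2.72, below background, while 14 of the 23 wild-type replicates had high ones, so genotype overlaps with sex. Differences against low-Y wild-type replicates alone are also given for Ptger3, and for Ptger2 and Ptgs2 outside CMP.

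**Figure D1:**
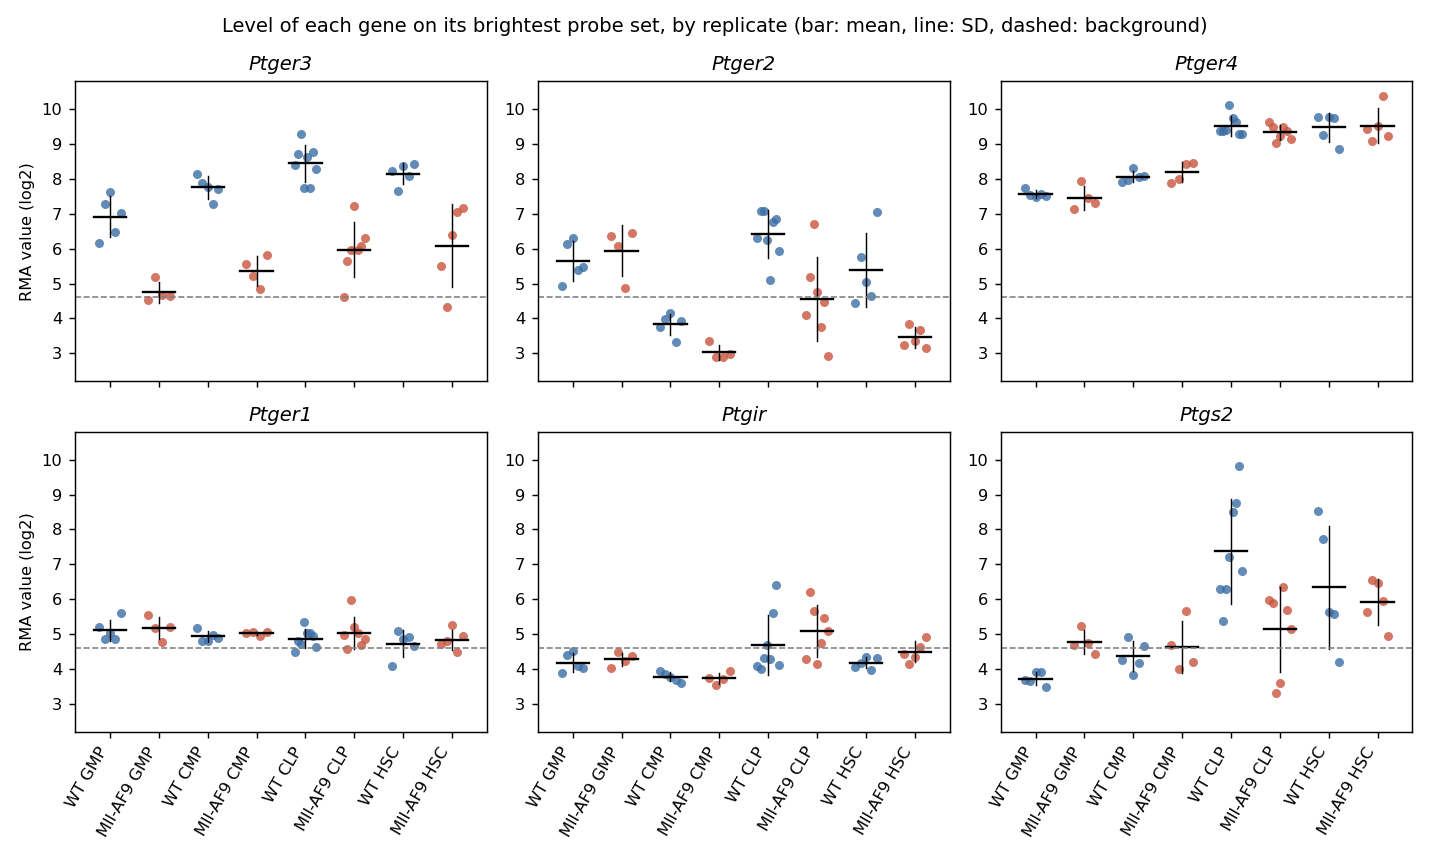
RMA values (log2, y axis) of the 6 genes on their brightest probe set in each replicate (points) of the 8 groups (x axis), wild type in blue and Mll-AF9 in red; horizontal bars are means, vertical lines SD and the dashed line is the background level of 4.62. Ptger3 is lower in Mll-AF9 in every population with no overlap, Ptger4 follows the population and not the genotype, and Ptgs2 spreads widely in CLP and in wild-type HSC.

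Ptger3, the Gi-coupled EP3 receptor, was lower in Mll-AF9 cells in all 4 populations, and in none of them did the genotypes overlap. In GMP the 5 wild-type values were 6.17, 7.29, 7.62, 6.48 and 7.01, and the 4 Mll-AF9 values were 4.52, 5.19, 4.67 and 4.63. The Mll-AF9 values lay close to the background level, and 1 of the 4 was below it. The Mll-AF9 minus wild type difference was −2.16 ± 0.27 (SE, n = 4 and 5), a 4.47-fold lower level.

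In CMP the wild-type values of Ptger3 were 8.15, 7.88, 7.76, 7.27 and 7.70, and the Mll-AF9 values were 5.56, 5.20, 4.85 and 5.81. Every wild-type replicate was above every Mll-AF9 replicate, and all stayed above background. The Mll-AF9 means of CMP (5.36) and GMP (4.75) lay below 5.57, the 99th percentile of the reference probe sets, so both folds are against low levels. The difference was −2.40 ± 0.21 (SE, n = 4 and 5), or 5.27-fold.

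In CLP, wild-type Ptger3 ranged from 7.73 to 9.29 with a median of 8.51, and Mll-AF9 Ptger3 from 4.63 to 7.22 with a median of 5.98. The highest Mll-AF9 value was replicate 4 and the lowest replicate 1, and even the highest lay under the lowest wild-type value. The difference was −2.47 ± 0.31 (SE, n = 7 and 8), or 5.53-fold.

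In HSC the wild-type values of Ptger3 were 8.22, 7.65, 8.37, 8.08 and 8.43, with an SD of 0.31. The Mll-AF9 values were 5.49, 4.32, 6.38, 7.06 and 7.17, with an SD of 1.19. The Mll-AF9 stem cells thus spread from below background to just under the lowest wild-type value, and the groups did not overlap. The difference was −2.07 ± 0.46 (SE, n = 5 and 5), or 4.19-fold.

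Among wild-type populations the mean of Ptger3 was 8.44 ± 0.53 (SD, n = 8) in CLP, 8.15 ± 0.31 (n = 5) in HSC, 7.75 ± 0.32 (n = 5) in CMP and 6.92 ± 0.59 (n = 5) in GMP. The ranges of neighbours in this order overlapped, but the steps from HSC to CMP (0.40) and from CMP to GMP (0.84) exceeded the larger SD of each pair. Repeat arrays of single CMP replicates differed by up to 0.53 for Ptger3, more than the step from HSC to CMP. The CMP values may also have been processed apart, and the effect of this was not tested. The 5 wild-type GMP values all lay below the 5 HSC values, with a difference of −1.23 ± 0.28 (SE). In Mll-AF9 cells the means were 6.08 ± 1.19 (SD, n = 5) in HSC, 5.97 ± 0.78 (n = 7) in CLP, 5.36 ± 0.42 (n = 4) in CMP and 4.75 ± 0.30 (n = 4) in GMP. In both genotypes GMP came last and CMP next to last. Neighbours in the Mll-AF9 order also overlapped, and of its steps only that from CMP to GMP (0.60) exceeded the larger SD, while that from CLP to CMP (0.62) did not.

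Against low-Y wild-type replicates alone, of which there were 3 in HSC and 2 in each other population, the Ptger3 differences were −2.21 in HSC, −2.04 in CLP, −2.13 in CMP and −1.99 in GMP. With the Y-linked level as a covariate the CLP difference was −2.01 ± 0.47 (SE), and no probe set of the array was called there, Ptger3 included. Among marker lists that differed between the genotypes, 6 megakaryocyte and platelet genes averaged 5.79 to 6.43 in wild-type and 4.95 to 5.68 in Mll-AF9 GMP, with 5 of the 6 group means above background in each and Ppbp below it. The median of this list was 7.03 in wild-type and 7.69 in Mll-AF9 CMP, 6.27 and 6.76 in CLP and 6.43 and 6.57 in HSC. The mean of 4 HSC genes was 5.18 to 5.55 in Mll-AF9 and 4.13 to 4.76 in wild-type GMP, and 5.85 to 6.28 and 4.44 to 5.07 in CMP, and most of this came from Mecom. Its mean was 7.37 against 4.09 in GMP and 8.22 against 4.30 in CMP, while Procr was 5.07 against 5.18 and 4.53 against 4.44. The 5 neutrophil genes averaged 3.83 to 7.62 in Mll-AF9 and 5.57 to 8.63 in wild-type CMP, and the mean of each was lower in Mll-AF9, from S100a8 at 6.16 against 8.62 to Ltf at 4.35 against 4.85. Among mast cell and basophil genes the 4 measured averaged 7.77 to 11.81 in wild-type and 6.03 to 9.79 in Mll-AF9 CLP, and 5.94 to 9.05 and 4.55 to 7.80 in HSC, all 4 above background in each of these groups. Their median was 6.73 in wild-type and 6.44 in Mll-AF9 GMP, and 5.49 and 5.77 in CMP, where Fcer1a was 3.15 and 4.69 and Cpa3 7.14 and 6.74. The part of these lists in the result was not tested.

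**Figure D2:**
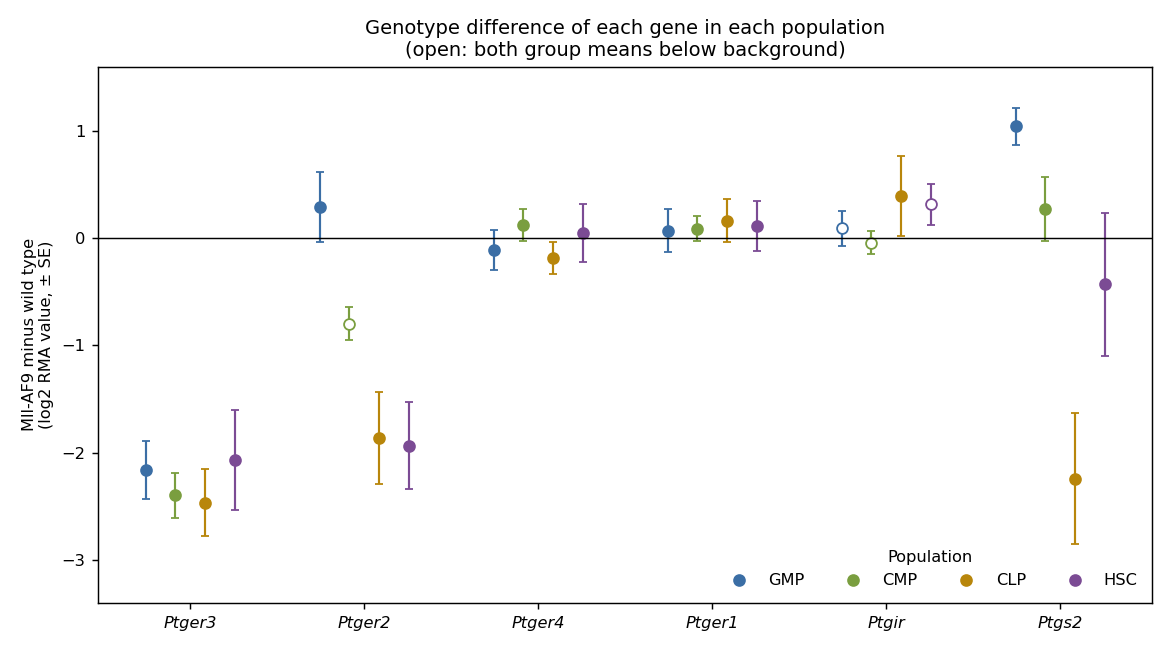
Mll-AF9 minus wild type difference (log2 RMA value, y axis) of each gene (x axis) in GMP, CMP, CLP and HSC (colours); points are fitted differences, bars are SE, and open points mark genes whose group means are both below background. Ptger3 lies between −2.07 and −2.47 in the 4 populations, Ptger2 is at −1.86 in CLP and −1.94 in HSC, and Ptgs2 runs from 1.04 in GMP to −2.24 in CLP.

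Ptger2, the Gs-coupled EP2 receptor, was lower in Mll-AF9 stem cells and in most Mll-AF9 CLP samples, while its levels in GMP of both genotypes overlapped. In HSC the wild-type values were 4.45, 5.77, 5.04, 4.65 and 7.05, and the Mll-AF9 values were 3.24, 3.85, 3.35, 3.68 and 3.16. All 5 Mll-AF9 values were below background, and they did not overlap with wild type, although wild-type replicate 1 was itself below background. The measured difference was −1.94 ± 0.40 (SE, n = 5 and 5), and with Mll-AF9 values raised to the background level the wild-type level was at least 1.71-fold higher.

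In CLP, Ptger2 was 5.11 to 7.09 in wild type (median 6.54) and 2.92 to 6.70 in Mll-AF9 (median 4.47). The groups overlapped through Mll-AF9 replicates 2 and 3, at 5.17 and 6.70, and the other 5 lay below every wild-type value. The difference was −1.86 ± 0.43 (SE, n = 7 and 8), at least 2.65-fold. Without Mll-AF9 replicates 3 and 4, which stand apart in immediate-early genes as described for Ptgs2, it was −2.34 ± 0.37.

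In GMP the wild-type values of Ptger2 were 4.94, 6.13, 6.31, 5.38 and 5.46 and the Mll-AF9 values 6.35, 6.08, 4.86 and 6.44, which overlapped. The difference was 0.29 ± 0.33 (SE), within the spread between replicates. In CMP both genotypes were below background (3.83 ± 0.31, n = 5, and 3.03 ± 0.21, n = 4, SD), so no fold is given. In wild type, Ptger2 was 6.42 ± 0.68 in CLP, 5.64 ± 0.56 in GMP and 5.39 ± 1.06 in HSC (SD), and these neighbours overlapped. Against low-Y wild-type replicates the differences were 0.51 in GMP, −1.52 in CLP and −2.12 in HSC. Whether the genotype difference itself differs between populations was not tested. The median of the CLP list was 7.47 in wild-type and 6.44 in Mll-AF9 HSC, 9.78 and 8.86 in CLP and 4.93 and 4.71 in GMP. Il7r was 5.05 and 3.47 in HSC with no overlap, while Dntt, Flt3 and Rag1 overlapped there. In CLP, Il7r was 9.54 and 9.49. The part of this list, or of those given for Ptger3, in the Ptger2 differences was not tested.

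Ptger4, the Gs-coupled EP4 receptor, followed the population and not the genotype. Its wild-type means were 9.52 ± 0.29 (SD, n = 8) in CLP, 9.47 ± 0.41 (n = 5) in HSC, 8.06 ± 0.15 (n = 5) in CMP and 7.57 ± 0.11 (n = 5) in GMP. The Mll-AF9 means were 9.34 ± 0.22 (n = 7), 9.52 ± 0.50 (n = 5), 8.19 ± 0.28 (n = 4) and 7.46 ± 0.34 (n = 4) in the same order. CLP and HSC overlapped in both genotypes, and every replicate of both was above every CMP replicate.

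The wild-type GMP values of Ptger4 were 7.74, 7.54, 7.47, 7.58 and 7.50, the CMP values 7.91, 7.97, 8.31, 8.06 and 8.07, and the HSC values 9.76, 9.25, 9.76, 9.74 and 8.86. These 3 groups did not overlap. The difference from HSC was −1.91 ± 0.21 (SE) in GMP, 3.75-fold, and −1.41 ± 0.19 in CMP, 2.66-fold, while CLP differed from HSC by 0.05. The CMP values may have been processed apart from the others by the authors, and the effect of this was not tested. The genotype differences were 0.05 ± 0.27 in HSC, −0.18 ± 0.15 in CLP, 0.13 ± 0.15 in CMP and −0.11 ± 0.19 in GMP (SE), each with overlapping groups.

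Ptger1, the EP1 receptor, had all its group means just above background, though single CLP and HSC replicates of both genotypes lay below it. Its group means ran from 4.73 in wild-type HSC to 5.18 in Mll-AF9 GMP, and all 7 steps in that order were smaller than the larger SD of the 2 groups. These means all lay below 5.57, the 99th percentile of the reference probe sets. The genotype differences were 0.07, 0.09, 0.16 and 0.11 in GMP, CMP, CLP and HSC, each with overlapping groups. Single values ran from 4.09, wild-type HSC replicate 1, to 5.97, Mll-AF9 CLP replicate 3.

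Ptgir, the prostacyclin receptor, had a mean above background only in CLP, at 4.69 ± 0.87 (SD, n = 8) in wild type and 5.08 ± 0.75 (n = 7) in Mll-AF9. Wild-type CLP ranged from 4.00 to 6.42 with a median of 4.31, and only replicates 4, 6 and 7 exceeded background, at 4.69, 5.61 and 6.42. Mll-AF9 CLP ranged from 4.14 to 6.20 with a median of 5.09, and 5 of 7 replicates exceeded background. The groups overlapped and the difference was 0.39 ± 0.37 (SE). In CMP the levels were lowest, at 3.78 ± 0.13 (n = 5) and 3.74 ± 0.16 (n = 4). With the 3′ minus 5′ signal difference of the Gapdh and beta-actin control probe sets, a measure of RNA length that was 3.36 to 3.91 in wild-type CLP and 3.68 to 4.93 in Mll-AF9 CLP, as a covariate, the CLP difference of Ptgir was 1.07 ± 0.36.

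Ptgs2, the inducible cyclooxygenase, was low in GMP and CMP and varied between replicates of CLP and HSC more than any of the receptors did in wild type, with SDs of 1.51 and 1.76. In GMP the wild-type values were 3.67, 3.66, 3.91, 3.90 and 3.49 and the Mll-AF9 values 4.68, 5.23, 4.75 and 4.42. The Mll-AF9 values did not overlap with wild type, and 3 of the 4 exceeded background, as none of the wild-type values did. The difference was 1.04 ± 0.17 (SE, n = 4 and 5), which with wild type raised to background is at least 1.11-fold. On the scale log2(value + 16), which shrinks differences near background, it was 0.57. Against the 2 low-Y wild-type replicates it was 1.07.

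In CMP, Ptgs2 was 4.26, 4.91, 3.82, 4.19 and 4.66 in wild type and 4.69, 4.01, 5.66 and 4.20 in Mll-AF9. The groups overlapped around the background level, and the difference was 0.27 ± 0.30 (SE). The repeat arrays of single CMP replicates differed by −0.81 to 0.29 for Ptgs2, by −0.17 to 0.53 for Ptger3 and by −0.13 to 0.77 for Ptger4 (second minus first). For Ptger4 this reaches past the step of 0.50 between wild-type CMP and GMP.

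In CLP, wild-type Ptgs2 ranged from 5.36 to 9.82 (median 7.00) and Mll-AF9 Ptgs2 from 3.31 to 6.36 (median 5.69). Replicates 5, 6 and 7 of wild type, at 8.51, 8.75 and 9.82, were the highest, and Mll-AF9 replicates 3 and 4, at 3.31 and 3.59, were the only CLP samples below background. The groups overlapped, and the difference was −2.24 ± 0.61 (SE, n = 7 and 8), 4.73-fold. This fold takes Mll-AF9 replicates 3 and 4 as measured, not raised to background, and would be smaller if they were raised. The difference was −1.57 ± 0.59 without Mll-AF9 replicates 3 and 4, −1.31 ± 0.64 after adding the 3′ minus 5′ difference to the fit and −1.86 against the 2 low-Y wild-type replicates.

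In HSC, Ptgs2 was 8.53, 7.73, 5.64, 5.58 and 4.20 in wild type and 5.63, 6.54, 6.47, 5.95 and 4.94 in Mll-AF9. Wild type spanned the whole Mll-AF9 range, and the difference of −0.43 ± 0.67 (SE) was within the spread. The 2 high-Y wild-type replicates held the 2 highest values and the 3 low-Y ones lay at 4.20 to 5.64, and against the latter the difference turned to 0.77. Without wild-type replicate 1 it was 0.12 and without wild-type replicate 5 it was −0.96.

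The lowest Ptgs2 values of wild-type HSC and of Mll-AF9 CLP came with low immediate-early genes, which are switched on within minutes of a stimulus and include the nuclear receptors Nr4a1 and Nr4a2 and the AP-1 gene Fosb. Wild-type HSC replicate 5 had Nr4a1 at 6.96, against 9.19 to 11.79 in the other 4. Mll-AF9 CLP replicates 3 and 4 had Nr4a1 at 6.78 and 6.07, against 8.97 to 11.66 in the other 5, and Nr4a2 at 3.20 and 4.46, against 7.13 to 9.76. In Mll-AF9 HSC the order was not shared, since replicate 5 had the lowest Ptgs2 (4.94) and the highest Nr4a1 (10.51) of its group. In GMP it was not shared either, since Mll-AF9 replicate 2 had the highest Ptgs2 (5.23) and the lowest Nr4a1 (4.96) of the 9 replicates. The part of these genes in the Ptgs2 differences was not tested. Neutrophil genes, which averaged 4.03 to 11.48 in wild-type and 7.09 to 12.21 in Mll-AF9 CLP, also varied widely there, and their part was not tested.

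**Figure D3:**
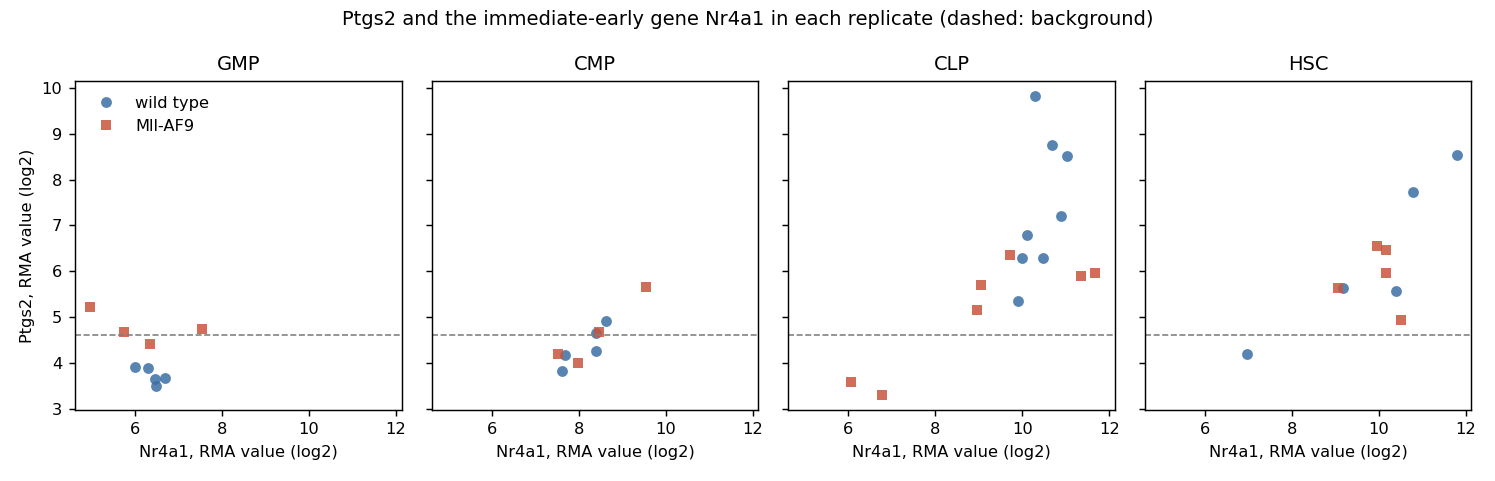
Ptgs2 (y axis) against the immediate-early gene Nr4a1 (x axis), both log2 RMA values, for each replicate of the 4 populations; blue circles are wild type, red squares Mll-AF9, and the dashed line is background. Wild-type HSC replicate 5 (Nr4a1 6.96, Ptgs2 4.20) and Mll-AF9 CLP replicates 3 and 4 (Ptgs2 3.31 and 3.59) sit at the lower left of their panels.

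Since these values chose the genes, counts of calls are given beside those of the whole array, and nothing is read from them. In GMP, 1 of the 10 probe sets was called lower (Ptger3; 0.0311% of all probe sets) and 1 higher (Ptgs2; 0.135%) at a Benjamini-Hochberg adjusted p below 0.05 in limma. In CMP and CLP, 1 probe set each was called lower (Ptger3; 0.0622% and 0.115% of all) and none higher (0.122% and 0.0999%). In HSC none was called (0.00222% of all lower, 0.00444% higher), and at an unadjusted p below 0.05 there were 2 (5.87% of all). Groups of the 6 genes that did not overlap were 1 lower and 1 higher in GMP (2.14% and 2.22% of genes), 1 lower in CMP (1.39%), 1 lower in CLP (0.0879%) and 2 lower in HSC (0.528%). Between wild-type populations, 3 of the 10 were called lower in GMP than in HSC (13.2% of all), 4 in CMP (8.87%) and 0 in CLP (2 at an unadjusted p below 0.05), where 5 of all 45037 probe sets were called, all higher (0.0111%), and 6.49% had an unadjusted p below 0.05. The ranges of 3 of the 6 genes lay wholly below HSC in GMP (9.53% of genes) and of 3 in CMP (10.2%). Those called in GMP were Ptger3, Ptger4 and Ptgs2, and in CMP Ptger2, Ptger4, Ptgir and Ptgs2. Ptgir was below background in both CMP and HSC (3.78 and 4.18). Below it too were Ptgs2 in GMP (3.73) and CMP (4.37) and Ptger2 in CMP (3.83). The ranges of Ptgs2 in CMP and HSC overlapped. The median difference of the 6 genes was −0.19 in HSC, −1.02 in CLP, 0.02 in CMP and 0.08 in GMP, where the median over all genes was 0.01, 0.06, 0.00 and −0.02.

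Other genes of the pathway were tested, from 8 lists of 85 genes, of which 78 were measured. They cover release of arachidonic acid, terminal synthases, other prostanoid receptors, transport and breakdown, receptor G proteins with adenylyl cyclases, protein kinase A and arrestins, cyclic AMP phosphodiesterases, cyclic AMP and prostaglandin E2 response genes, and the leukotriene arm. None of the 78 was called between genotypes in any population by limma at an adjusted p below 0.05, against 0.225%, 0.297%, 0.28% and 0.011% of all genes in GMP, CMP, CLP and HSC. At an unadjusted p below 0.05 there were 7 in GMP (5 higher, 2 lower; 8.97% of the 78 against 9.21% of all genes), 13 in CLP (8 and 5; 16.7% against 8.77%), 10 in CMP (5 and 5; 12.8% against 6.12%) and 5 in HSC (3 and 2; 6.41% against 5.62%). The median difference over the 78 was −0.05 in GMP, 0.07 in CLP, 0.00 in CMP and 0.02 in HSC.

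The smallest p in GMP belonged to Nr4a2, a cyclic AMP response gene, at 5.60 in Mll-AF9 and 4.73 in wild type with no overlap (0.87 ± 0.22, adjusted p = 0.187). Of its dimmer probe sets, 1 lay the other way (−0.76 ± 0.25, adjusted p = 0.371) and the other 4 differed by −0.16 to 0.10. In CMP it belonged to Pde3b, a phosphodiesterase that breaks down cyclic AMP, at 8.19 and 7.36 with no overlap (0.83 ± 0.19, adjusted p = 0.149). In CLP it was Rapgef3, the cyclic AMP-activated exchange factor Epac1, at 8.64 and 6.68 with overlap (1.96 ± 0.47, adjusted p = 0.139). In HSC it was Slco3a1, a transporter that carries prostaglandins, at 6.90 and 8.69 with no overlap (−1.79 ± 0.29, adjusted p = 0.116).

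Slco3a1 and Rapgef3 each have dimmer probe sets that were called in CLP. The 2 dimmer Slco3a1 probe sets were lower in Mll-AF9 CLP by the fit, at −1.49 ± 0.27 (adjusted p = 0.019) and −1.33 ± 0.25 (adjusted p = 0.0306), while its brightest gave −1.17 ± 0.34 (adjusted p = 0.321). Of the Rapgef3 probe sets, 1 gave 1.78 ± 0.32 (adjusted p = 0.0206), and another gave 0.93 ± 0.19 (adjusted p = 0.0468) with both means below background. Hpgd, the main enzyme that inactivates prostaglandin E2, had means below background in both genotypes of GMP (4.50 and 3.11; 1.39 ± 0.50, adjusted p = 0.424), with Mll-AF9 values spread from 3.19 to 6.59.

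**Figure D4:**
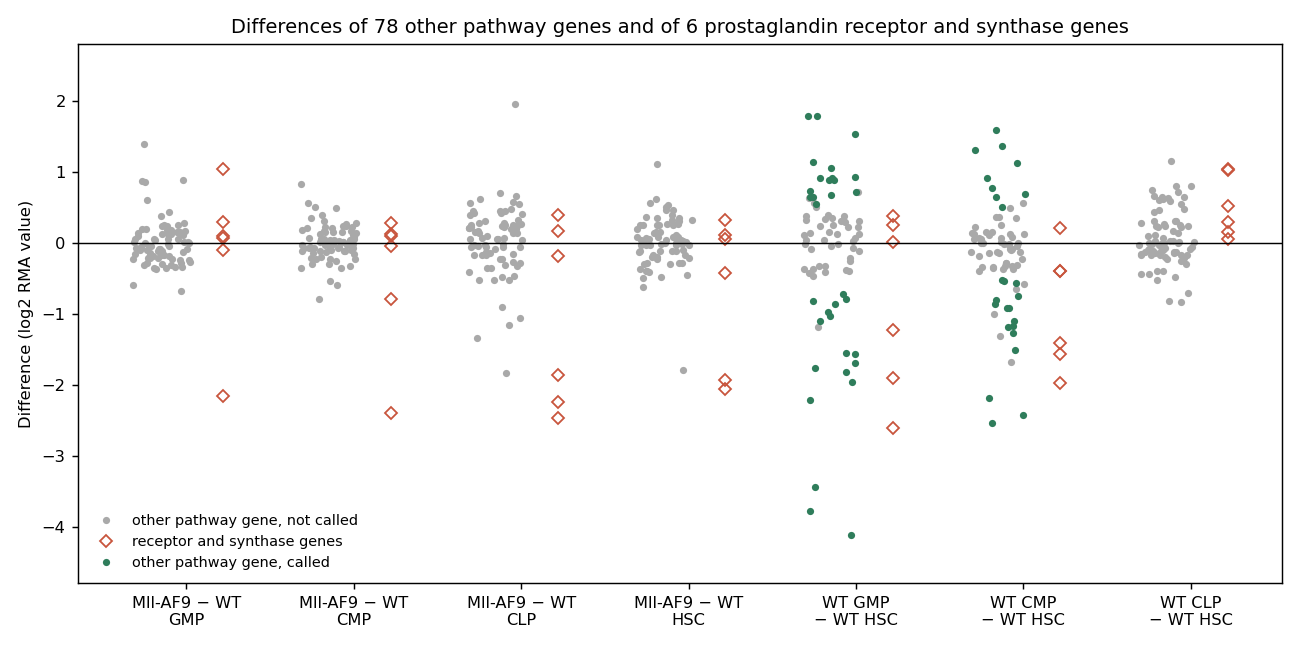
Differences (log2 RMA value, y axis) of the 78 other pathway genes (dots, green where limma called them) and of the 6 receptor and synthase genes (open diamonds, given as a description) in 4 genotype comparisons and 3 comparisons of wild-type populations (x axis). No dot is green in the genotype comparisons, 33 are in wild-type GMP against HSC and 25 in wild-type CMP against HSC.

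Between wild-type GMP and HSC, 16 of the 78 pathway genes were higher in GMP and 17 lower (42.3%, against 32.9% of all genes; median 0.09 against 0.14). Of the 14 response genes 6 were lower and 2 higher. Nr4a2 was 4.73 in GMP and 8.50 in HSC (−3.78 ± 0.73, adjusted p = 0.00162), Nr4a1 6.38 and 9.82 (−3.44 ± 0.65, adjusted p = 0.00144) and Fosb 6.32 and 8.14 (−1.82 ± 0.59, adjusted p = 0.032), a call lost in 7 of 10 fits without 1 replicate (adjusted p up to 0.0704). All 3 were low in wild-type HSC replicate 5, the one lowest in Ptgs2.

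Of the 7 phosphodiesterases, 2 were higher and 2 lower in GMP, led by Pde4b at 6.21 against 10.33 (−4.12 ± 0.48, adjusted p = 3.29e-05) and Pde4d at 6.50 against 7.53 (−1.03 ± 0.25, adjusted p = 0.00722). Pde3a was called higher with both means below background. Of 24 signalling genes, 4 were higher and 6 lower. The adenylyl cyclases Adcy9 (−2.21 ± 0.32, adjusted p = 0.000204) and Adcy6 (−1.69 ± 0.23, adjusted p = 0.000125) and the protein kinase A subunit Prkacb (−1.96 ± 0.24, adjusted p = 4.54e-05) were each lower in all 5 GMP replicates than in all 5 HSC replicates.

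The enzymes of GMP were mixed. Of 8 terminal synthases, thromboxane synthase Tbxas1 was lower (5.29 against 6.85; −1.56 ± 0.32, adjusted p = 0.00246) and the prostaglandin E synthase Ptges2 (1.05 ± 0.29, adjusted p = 0.0151) and Prxl2b (0.71 ± 0.23, adjusted p = 0.0324; call lost in 4 of 10 fits without 1 replicate) were higher. The phospholipase Pla2g10 was higher (0.92 ± 0.19, adjusted p = 0.00226), the only one called of 5 measured genes of arachidonic acid release. Its mean was 5.51 in GMP and 4.59 in HSC, the latter just below background. Of 9 leukotriene genes, the receptor Ltb4r1 (1.79 ± 0.26, adjusted p = 0.000188) and the hydrolase Lta4h (1.53 ± 0.37, adjusted p = 0.00731) were higher, and Cysltr2 was called lower with both means below background.

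The efflux pump Abcc4 (0.89 ± 0.20, adjusted p = 0.0043) and the prostaglandin reductase Ptgr1 (0.91 ± 0.31, adjusted p = 0.0375) were higher and Slco3a1 (−0.79 ± 0.26, adjusted p = 0.0342) lower among 6 transport and breakdown genes. The Ptgr1 call was lost in 7 and the Slco3a1 call in 8 of 10 fits without 1 replicate. Of 5 other prostanoid receptors, Ptgdr, a receptor for prostaglandin D2, was called higher (5.07 against 4.53; adjusted p = 0.0258), and the call was lost in 5 of 10 such fits. Its HSC mean lay below background.

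Between wild-type CMP and the same HSC replicates, 9 of the 78 genes were higher in CMP and 16 lower (32.1%, against 23.7% of all genes; median −0.12 against 0.01). The transporter Slco3a1 was 6.14 in CMP and 8.69 in HSC (−2.54 ± 0.27, adjusted p = 3.12e-05), and Ptgr1 was higher (0.77 ± 0.21, adjusted p = 0.0201; lost in 3 of 10 fits without 1 replicate). Pde4b was again lower (7.90 against 10.33; −2.43 ± 0.44, adjusted p = 0.00181), 1 of 3 phosphodiesterases that were, and 1 of the 7 was higher. Alox5ap, which presents arachidonic acid to 5-lipoxygenase, was lower (7.78 against 9.97; −2.18 ± 0.235, adjusted p = 3.59e-05).

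Of the 24 signalling genes in CMP, 4 were higher and 5 lower, among them the protein kinase A subunit Prkar2b (1.59 ± 0.24, adjusted p = 0.000433) and Adcy9 (−1.27 ± 0.31, adjusted p = 0.0107), whose call was lost after adding the 3′ minus 5′ difference to the fit (adjusted p = 0.0824). Adcy6, which was lower in GMP, was called higher in CMP (0.91), and the call was kept in all 10 fits without 1 replicate. Tbxas1 was lower (−1.51 ± 0.32, adjusted p = 0.00463) and Ptges2 higher (1.37 ± 0.25, adjusted p = 0.00195), as in GMP, and both comparisons share the HSC replicates. The thromboxane receptor Tbxa2r was lower (5.14 against 5.89; −0.75 ± 0.18, adjusted p = 0.00884). The phospholipase Pla2g4a was lower (−0.54 ± 0.16, adjusted p = 0.0335), a call lost in 6 of 10 fits without 1 replicate. Of the 14 response genes, Birc5 was higher (1.31 ± 0.28, adjusted p = 0.00544) and Fos lower (−0.87 ± 0.16, adjusted p = 0.00161), while Creb1 was lower with a call lost in 8 of 10 such fits (adjusted p = 0.0372 with all replicates, up to 0.102). Between wild-type CLP and HSC none of the 78 was called by limma (0.022% of all genes were), and 9 had an unadjusted p below 0.05 (6 higher, 3 lower; among all genes 6.34% had).

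The genes whose level followed Ptger3 most closely over the 43 replicates, among 11419 genes above background in at least 1 group, were Hmga2 (Pearson r = 0.722), Fhl1 (0.707), Stx3 (0.705), Sytl4 (0.692) and Klhl4 (0.687). The replicates share genotype and population, so these values describe a shared pattern and carry no p. For Ptger4 they were Bex1 (0.945), Gimap8 (0.943) and Vldlr (0.937), and for Ptgs2 Ier3 (0.876), Spry2 (0.873) and Ccl3 (0.858). For Ptger2 they were Btla (0.775), Itgal (0.76) and Cd52 (0.748), and for Ptgir Itm2c (0.814), Tktl1 (0.81) and Skap1 (0.794). The likeness of Ptger1 to Ccdc180 (0.74), Cacna1d (0.733) and Spsb1 (0.729) rests on a range of levels near background. The named genes depend on the measure: by Spearman's rho 3 of 5 stayed among the closest for Ptger3, 2 of 3 for Ptger1, 1 of 3 each for Ptger2 and Ptgs2 and 0 of 3 each for Ptger4 and Ptgir. Over the 8 group means 1 of 5 stayed for Ptger3, 2 of 3 for Ptger4, 1 of 3 for Ptger2 and 0 of 3 each for Ptger1, Ptgir and Ptgs2.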

How the data were processed

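Total RNA of sorted cells was amplified in 2 cycles and hybridised to 1-colour Affymetrix arrays, per the labels' protocols. Per the submitters' processing notes, the authors used RMA, and they deposited its linear intensity for each probe set. The sources used here give neither the RMA version nor which arrays were normalised in 1 run. CMP values carry more decimals and may have been processed apart. Here log2 was taken, repeat arrays of 8 CMP replicates were averaged (51 arrays, 43 replicates), and 64 control probe sets were left out. Of 45037 probe sets, 34945 name 1 gene in the platform annotation; symbols were updated through the gene table, and 18193 genes were read on their brightest probe set.

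Each comparison was fitted on its 2 groups in R 4.3.3 by limma 3.58.1, using lmFit and an eBayes trend on mean intensity, adjusted by Benjamini-Hochberg over all 45037 probe sets and called at 0.05. SEs are limma's moderated ones. Since the labels do not say that replicates were separate mice, p-values may reflect technical spread. Folds against a group with a mean below background raise each replicate of that group to at least that level. The script was tested on simulated data. Precision is limited by the number of arrays, and 53.4% to 60.4% of genes per replicate lay above background.

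The genes, the pathway and marker lists and the tests were chosen with earlier results of these data known. Named pathway genes were, per genotype comparison, up to 10 called genes or else the smallest p, and per population comparison up to 3 called genes per list by absolute difference. The dimmer probe sets, Hpgd and Adcy6 in CMP were added after their values were seen. Likeness to Ptger3 took 5 genes and to other genes 3. Alternatives covered filters, 1 probe set per gene, renormalisation, variance models, all groups in 1 model, the replicate block, covariates, the log scale, repeat runs and each replicate left out. Replicates were not treated as paired in the main fits: of 35 same-numbered pairs, 10 had deviations correlated over 0.1. Between wild-type populations these were 3 of 5 for GMP and HSC, 0 of 5 for CMP and HSC and 2 of 5 for CLP and HSC. Such correlations cannot settle whether same-numbered wild-type replicates came from the same mice.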

Additional observations from a re-analysis of the deposited data

How the results depend on the processing

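Of 973 differences of the 6 genes under alternatives, 970 moved by less than 1 SD of the replicates. The 3 others were all on the scale log2(value + 16): Ptgs2 in GMP (0.57), Ptger2 in CMP (−0.32) and Ptgir in wild-type CMP against HSC (−0.20). Where replicates spread widely this measure is coarse. The difference of Ptgs2 in HSC, −0.43 in the main fit, reached 0.77, and that of Ptgir in CLP rose from 0.39 to 1.07, and neither counted as moved. Ptger3 with 1 replicate left out ran from −2.35 to −1.98 in GMP, −2.55 to −2.23 in CMP, −2.68 to −2.24 in CLP and −2.34 to −1.62 in HSC, and under the other alternatives from −2.25 to −1.67, −2.53 to −2.02, −2.71 to −2.01 and −2.21 to −1.78. With the 99th percentile of the reference probe sets as background, 20 of the 48 group means lay above it, against 36; on the other probe sets 0 did.

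The count of pathway genes called between genotypes was 0 except as follows. With low-Y replicates alone, chosen after seeing the data, it was 3 in GMP, with 1 replicate left out it was 0 to 1 in GMP and 0 to 1 in CLP, with all CMP runs and the replicate as a random effect it was 1 in CMP, and with all 8 groups in 1 model it was 2 in CLP and 1 in HSC. With 1 probe set per gene it was 1 in HSC, and without Mll-AF9 CLP replicates 3 and 4, also chosen after seeing the data, it was 2 in CLP. With the replicate block it was 1 in CLP. Whether the numbers pair samples is not known, and 5 of 35 correlated best with their own number. Between wild-type populations it was 33 in GMP against HSC (26 to 36 under alternatives) and 25 in CMP against HSC (18 to 31). Of 1288 recomputed calls of these 58 genes 1156 were kept, 132 lost and 0 reversed, and 23 and 17 genes were called with every replicate left out in turn.

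Probe sets called over the whole array, the background of the counts, moved far more: from 61 higher and 14 lower to 291 and 92 in GMP with low-Y replicates alone, from 55 and 28 to 8 and 1 in CMP with all 8 groups in 1 model, from 45 and 52 in CLP to 0 and 0 with the Y-linked level as a covariate and to 203 and 199 in the 1 model, and from 2 and 1 in HSC to 45 and 76 there. Leaving out 1 replicate gave 25 to 169 higher and 4 to 55 lower in GMP. In wild-type GMP against HSC the lowest counts were 4052 and 2447, against 7831 and 5962, and in CLP against HSC up to 81 and 27 were called, against 5 and 0. The causes were not tested.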
